A study of Arabidopsis thaliana with 4 samples.

Results

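The 7 genes described here are output genes of plant immunity in Arabidopsis thaliana: PR1 (AT2G14610), PR2 (AT3G57260) and PR5 (AT1G75040), which encode pathogenesis-related (PR) proteins, ALD1 (AT2G13810), and the camalexin genes CYP71A12 (AT2G30750), CYP71A13 (AT2G30770) and PAD3 (AT3G26830). They were picked by locus identifier, with earlier results of these data known, and all 7 are among the 33977 gene rows of each library. Messenger RNA was sequenced from single plants, 2 that overexpressed PPD3 in the Columbia-0 (Col-0) background and 2 of wild-type Col-0, the common laboratory accession. PPD3 is a PsbP-domain protein, of a family named after an outer subunit of photosystem II. The plants were grown on peat mix at 22 °C with 16 h of light and were frozen when they bolted, that is, sent up the flowering stem. The labels call the tissue both whole plants and whole rosette. The promoter that drives PPD3, the number of transgenic lines behind the 2 overexpressor plants, plant age in days and the hour of harvest were not stated in the labels. No pathogen or elicitor treatment is named, so the comparison of PPD3 overexpressor with wild type concerns the levels of these genes in plants grown without a stated challenge.

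Plants that detect a pathogen raise salicylic acid, a hormone that acts through the NPR1 co-activator and TGA transcription factors to switch on the secreted PR proteins. ALD1 is the aminotransferase that starts the conversion of lysine into pipecolic acid, whose N-hydroxylated form carries systemic acquired resistance through the plant. Camalexin, the main phytoalexin (an antimicrobial made on demand) of Arabidopsis, comes from tryptophan: CYP79B2 and CYP79B3 make an indolic aldoxime, CYP71A13 and its copy CYP71A12 turn it into a nitrile, and PAD3, also called CYP71B15, closes the ring that makes camalexin. WRKY factors, WRKY33 above all, bind the W-box, whose core is TTGAC, in promoters of camalexin genes.

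The promoter windows of CYP71A12 and CYP71A13 are shown because the pair share a pathway step and a stretch of chromosome while their counts did not run in parallel. Any link between these sequences and the counts was not tested. Sequences are RefSeq's, read from build TAIR10.1 on the minus strand, 5′ to 3′, with capitals for the W-box core TTGAC and the TGA-factor core TGACG on either strand (TTGACG holds both).
CYP71A12, chr2:13101452-13101621, from 250 to 81 bases before the start codon: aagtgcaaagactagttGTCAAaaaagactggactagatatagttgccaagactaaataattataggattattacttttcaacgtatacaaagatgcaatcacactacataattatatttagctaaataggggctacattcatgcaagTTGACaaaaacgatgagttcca
CYP71A13, chr2:13112069-13112238, from 250 to 81 bases before the start codon: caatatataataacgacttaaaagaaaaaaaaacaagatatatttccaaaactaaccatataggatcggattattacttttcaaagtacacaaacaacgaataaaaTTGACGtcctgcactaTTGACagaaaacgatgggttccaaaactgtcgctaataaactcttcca

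The annotated models of CYP71A12 and CYP71A13 begin at the start codon, so their windows are counted from there. Over the whole 250 bases the promoters of the pair aligned with 179 identical letters in 260 columns (68.8%). TTGAC stood at 233 (on the strand opposite the gene) and 102 bases before the start in CYP71A12 and at 144 and 128 bases in CYP71A13. For PR2, PR5, ALD1 and PAD3 the 250 bases end at the transcript start, as their models hold 72 to 97 untranslated bases before the start codon. TTGAC was found there once in PR5, on the strand opposite the gene, and was not found in PR2, ALD1 or PAD3. Bases further upstream were not read. Thus 3 of the 6 windows read held TTGAC, against 44.9% of the windows before 27444 protein-coding genes. TGACG was in 1 of 6, that of CYP71A13, against 18.6% of all. The G-box CACGTG was in 1 of 6, that of PR2, against 6.49%.

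The genes lie on chromosomes 1 (PR5), 2 (PR1, ALD1, CYP71A12 and CYP71A13) and 3 (PR2 and PAD3) and overlap no other annotated gene, with the exception of CYP71A13. CYP71A12 (chr2:13099486-13101371) and CYP71A13 (chr2:13109909-13111988) are separated by 8537 bases and have 1494 coding bases each, of which 1350 (90.4%) are identical. Aligned stretches of 150 bases, the length of a read, differed between these copies at 8 to 26 positions, with a median of 13. No exonic stretch of 150 bases in any of the 7 genes had a second exact copy in the genome. The last exon of CYP71A13 lies opposite an exon of AT2G30766, a gene of the other strand, over 330 of its 1494 exonic bases (22.1%). The reads carry no strand and such reads can be set aside as ambiguous, so the level of CYP71A13 is uncertain. AT2G30766 itself had 32.1 and 51.4 CPM in the overexpressor plants and 35.4 and 32.9 CPM in the wild-type plants.

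Counts assigned to genes summed to between 33771093 and 40727172 per plant. The overexpressed transcript was checked first: AT1G76450, taken as PPD3 from general knowledge because the reference table gives the locus no symbol, had 113628 and 111903 counts in overexpressor plants 1 and 2, against 3800 and 2460 counts in wild-type plants 1 and 2. Leaf genes were abundant in every library, with 6 mesophyll markers summing to 21788 and 24918 CPM in the overexpressor plants and 20335 and 16244 CPM in the wild-type plants. Root markers were near the limit of counting, and 5 of them summed to no more than 0.574 CPM in any plant, with RHD6 at 0 throughout. The labels number the plants as biological replicates, and the counts of the 2 plants of a genotype differed by far more than sampling noise (chi-square per degree of freedom over genes of 74.5 for the overexpressor plants and 52.1 for the wild-type plants).

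All 7 genes had lower mean levels in the PPD3 overexpressor than in wild type, with log2 fold changes from -2.19 for PR1 to -0.64 for PR2 and a median of -1.48, beside a median of 0.01 over the 19919 genes tested. In 6 of the 7, PR2 being the exception, both overexpressor plants lay below both wild-type plants, which was the case for 33.0% of all genes tested. By edgeR's quasi-likelihood test with Benjamini-Hochberg adjustment over all genes, 0 of the 7 passed an adjusted p of 0.05, a threshold that 1 gene in the whole table passed (0.00502% of genes tested). At an unadjusted p under 0.05, 5 of the 7 were lower (17.0% of all genes were). The same 5 genes, PR1, PR5, ALD1, CYP71A13 and PAD3, were lower at an adjusted p of 0.10 in edgeR (11.2% of all genes) and at an adjusted p of 0.05 in DESeq2 (9.72%), while limma with voom weights called 0. With 2 plants a genotype, an exact permutation test of a single gene cannot give a two-sided p under 0.333. In bulk tissue, fewer cells that express a gene and less RNA per cell cannot be told apart.

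**Figure D1:**
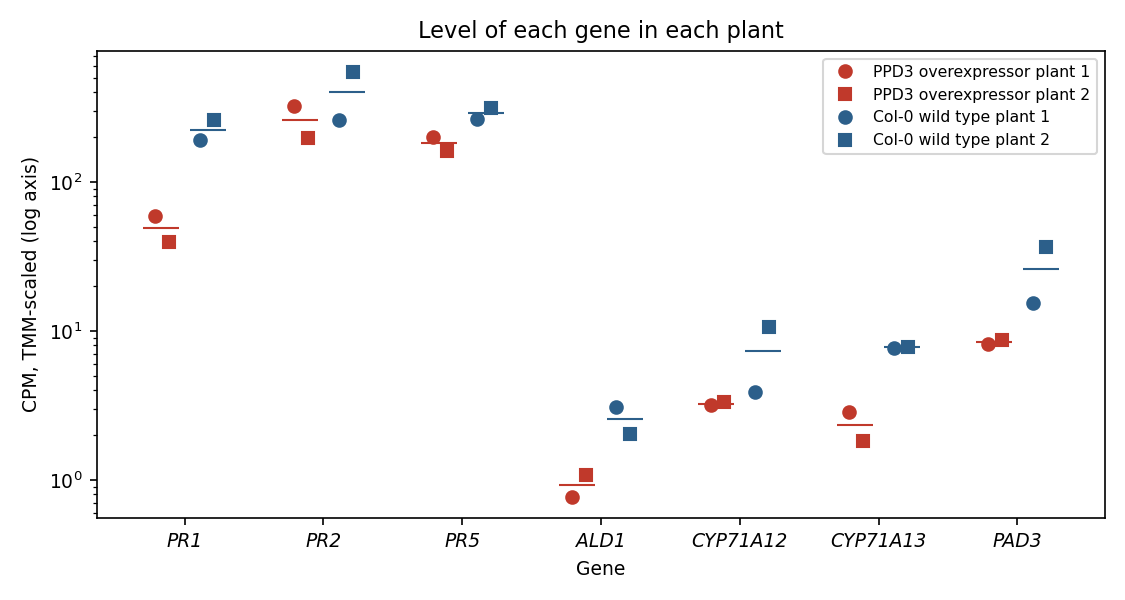
Level of each gene in each plant, in CPM after TMM scaling on a log axis. Points are single plants (circles plant 1, squares plant 2; red PPD3 overexpressor, blue Col-0 wild type) and lines are means over 2 plants. The 3 PR genes stand at 39.8 CPM or more in every plant and the other 4 genes at 36.6 CPM or less, and the red and blue points overlap in PR2 alone.

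Levels are given as CPM, read counts brought to the same total in each library, after TMM scaling for composition. A log2 fold change sets the overexpressor over wild type and is followed by its SE. PR1, a small secreted protein of the CAP family that serves as the usual marker for salicylic acid signalling, was at 58.9 and 39.8 CPM in overexpressor plants 1 and 2, against 190 and 259 CPM in wild-type plants 1 and 2. The highest overexpressor plant was thus well below the lowest wild-type plant. The means were 49.4 ± 13.4 CPM in the overexpressor and 225 ± 48.6 CPM in wild type (SD, n = 2 each), which is 4.55-fold lower, with a 95% interval of the log2 fold change from -2.93 to -1.44. Its adjusted p was 0.0623 in edgeR, a tie shared by 681 genes, and 3.68e-11 in DESeq2. By fold change, 1.50% of tested genes stood below it. The DESeq2 call held with any 1 plant left out, and the largest adjusted p was then 3.80e-05, without wild-type plant 2.

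PR2, named BGL2 in the reference, is a beta-glucanase that attacks fungal cell walls. It was at 323 and 196 CPM in the overexpressor plants and at 260 and 547 CPM in the wild-type plants. Overexpressor plant 1 exceeded wild-type plant 1, so the genotypes overlapped. The wild-type plants were further apart than in PR2 in 3.92% of tested genes. Its log2 fold change of -0.64 ± 0.45 (95% interval -1.85 to 0.58) did not pass in edgeR (adjusted p = 0.374) or DESeq2 (adjusted p = 0.322). Without wild-type plant 2 it was -0.01, so the lower mean in PR2 rested on that plant. PR5, a thaumatin-like protein, was at 201 and 162 CPM in the overexpressor plants and 265 and 316 CPM in the wild-type plants. Both overexpressor plants lay below both wild-type plants. The difference was 1.60-fold (log2 fold change -0.68 ± 0.18, edgeR adjusted p = 0.0921, DESeq2 adjusted p = 0.0136), and the DESeq2 call was lost without overexpressor plant 2 (adjusted p = 0.447) or wild-type plant 2 (adjusted p = 0.445).

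ALD1 was the least abundant of the genes. It had 31 and 37 counts in the overexpressor plants and 115 and 71 counts in the wild-type plants, or 0.774 and 1.08 CPM against 3.11 and 2.04 CPM. Here wild-type plant 1 was the higher one of its genotype, unlike in the PR genes, where wild-type plant 2 was. The overexpressor mean was 2.78-fold lower (-1.48 ± 0.34 on the log2 scale, edgeR adjusted p = 0.0798, DESeq2 adjusted p = 0.0191). DESeq2 lost the call when any 1 plant was left out (adjusted p from 0.197 to 0.340), while the log2 fold change in edgeR then ran from -1.77 to -1.17.

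**Figure D2:**
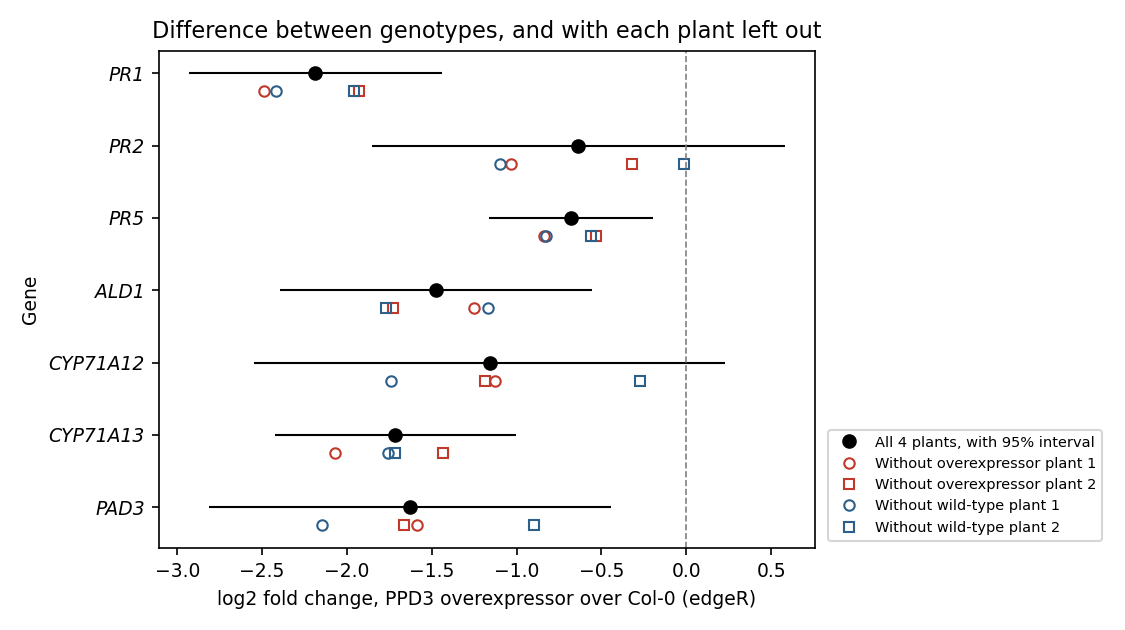
Log2 fold change of each gene, PPD3 overexpressor over Col-0, from edgeR. Black points and lines are the estimates from 4 plants with 95% intervals, and open symbols below them the estimates with 1 plant left out. PR1, PR5, ALD1, CYP71A13 and PAD3 have intervals below 0, and leaving out wild-type plant 2 moves PR2 to -0.01, CYP71A12 to -0.27 and PAD3 to -0.90.

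PAD3, which completes camalexin, was the most abundant of the camalexin genes per length of transcript. It stood at 8.21 and 8.63 CPM in the overexpressor plants, against 15.5 and 36.6 CPM in the wild-type plants. The overexpressor plants were nearly equal, while 2.85% of tested genes had wild-type plants further apart. The difference was 3.09-fold, lower in the overexpressor (log2 value -1.63 ± 0.44, edgeR adjusted p = 0.0944, DESeq2 adjusted p = 0.0030). Without wild-type plant 2 its log2 fold change was -0.90 and the DESeq2 call was lost (adjusted p = 0.217).

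CYP71A13, the main enzyme of the nitrile step, was at 2.87 and 1.84 CPM in the overexpressor plants and at 7.68 and 7.84 CPM in the wild-type plants. Both overexpressor plants were far below the wild-type plants, which were almost level. The overexpressor mean was 3.29-fold lower (-1.72 ± 0.26 on the log2 scale, 95% interval -2.43 to -1.01, edgeR adjusted p = 0.0623, DESeq2 adjusted p = 2.59e-05). The log2 fold change stayed between -2.07 and -1.43 with any 1 plant left out, and DESeq2 lost the call without wild-type plant 2 (adjusted p = 0.116), where it called 513 genes in place of 3681. CYP71A12 was at 3.19 and 3.33 CPM in the overexpressor plants and at 3.90 and 10.7 CPM in the wild-type plants. The genotypes did not overlap, but the overexpressor plants, at 128 and 114 counts, lay just below wild-type plant 1, at 144 counts. Its log2 fold change of -1.16 ± 0.52 (95% interval -2.55 to 0.23) did not pass in edgeR (adjusted p = 0.200) or DESeq2 (adjusted p = 0.116), and it was -0.27 without wild-type plant 2. Without wild-type plant 1, which leaves the higher plant alone in wild type, the log2 fold change of CYP71A12 in edgeR was -1.74.

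The balance between the 2 copies was not the same in both wild-type plants. Of the reads assigned to either copy, CYP71A12 held 52.7% (exact 95% interval 46.2 to 59.1%) and 64.4% (56.9 to 71.4%) in overexpressor plants 1 and 2, and 33.6% (29.2 to 38.3%) and 57.7% (53.8 to 61.5%) in wild-type plants 1 and 2. These intervals cover counting error only. Wild-type plant 1 stood apart from the other 3 plants, and the genotypes overlapped, so no difference in share between genotypes was seen beyond the spread of plants. Wild-type plant 2, with the highest CYP71A12 level, also had the highest PAD3, PR1, PR2 and PR5, while CYP71A13 was at nearly the same level in both wild-type plants.

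**Figure D3:**
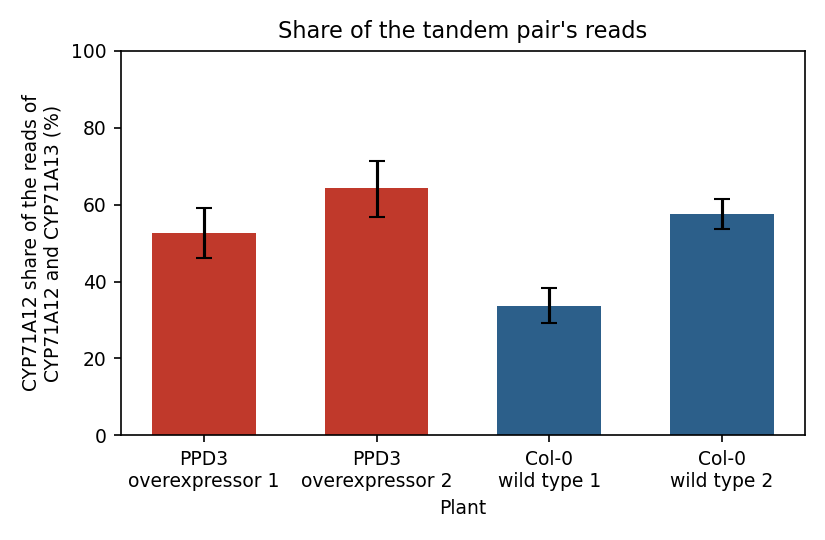
Share of CYP71A12 among the reads assigned to CYP71A12 and CYP71A13, in percent, for each plant. Bars are single plants (red PPD3 overexpressor, blue Col-0 wild type) and error bars exact 95% binomial intervals, which cover counting error only. Wild-type plant 1 has the lowest share, 33.6%, and the other plants lie between 52.7% and 64.4%.

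Levels can be compared between genes only per length, here as CPM per kilobase of exon. On that scale the overexpressor means were 176 for PR2, 166 for PR5, 54.7 for PR1, 4.74 for PAD3, 2.18 for CYP71A12, 1.58 for CYP71A13 and 0.590 for ALD1. The wild-type means were 273 for PR2, 265 for PR5, 249 for PR1, 14.7 for PAD3, 5.20 for CYP71A13, 4.88 for CYP71A12 and 1.64 for ALD1. In the overexpressor PR1 (65.2 and 44.2) was below PR5 (183 and 148) and PR2 (218 and 133) in both plants, whereas in wild type the 3 PR genes overlapped one another across the 2 plants and could not be ranked. CYP71A12 (2.14 and 2.23) was above CYP71A13 (1.92 and 1.23) in the overexpressor plants and overlapped it in the wild-type plants, but reads over the part of CYP71A13 that lies opposite another gene may be missing from its level, so the order of the copies is uncertain.

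Genes of the surrounding pathways were read from lists of named loci. Lower levels were found among other secreted defence proteins as well. Of 12 listed, 11 were tested and 9 had negative values. The middle value of this list was -2.46 on the log2 scale. By DESeq2, 5 were called lower (9.72% of all genes were) and 0 higher (8.41% of all genes were). PR4, a chitin-binding protein induced through ethylene and jasmonate, was at 67.0 ± 13.2 CPM in the overexpressor and 369 ± 60.7 CPM in wild type (log2 fold change -2.46 ± 0.22, edgeR adjusted p = 0.0623). OSM34, an osmotin of the same thaumatin-like family as PR5, was at 1.30 ± 0.60 CPM in the overexpressor and 17.7 ± 5.2 CPM in wild type (-3.76 ± 0.42). The 2 genes with positive values were scarce, at no more than 1.45 CPM in any plant: BG1, a glucanase of the PR2 family, was at 0.80 ± 0.83 and the PR1-like gene AT2G19990 at 0.37 ± 0.68 on the log2 scale, and neither passed in edgeR or DESeq2.

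The other enzymes on the way to camalexin had values in both directions. Of 11 listed, 10 were tested, with a median log2 fold change of 0.01 and as many positive as negative values (5 each). DESeq2 called 2 lower and 1 higher (9.72% and 8.41% of all genes). CYP79B2, which makes the indolic aldoxime for camalexin, indole glucosinolates and auxin alike, was at 139 and 95.7 CPM in the overexpressor plants and 58.6 and 70.3 CPM in the wild-type plants (log2 fold change 0.86 ± 0.23, edgeR adjusted p = 0.0914, DESeq2 adjusted p = 0.0124). It was higher in both overexpressor plants, the opposite of CYP71A13. GGP1, a peptidase that trims the glutathione conjugate, was at 0.54 ± 0.28 and did not pass in either tool. GSTU4, a glutathione transferase, was lower (-2.31 ± 0.29, edgeR adjusted p = 0.0623, DESeq2 adjusted p = 7.89e-09), as was FOX1, an oxidase of a side branch of the same pathway (-1.74 ± 0.60, edgeR adjusted p = 0.132, DESeq2 adjusted p = 0.0216). The third copy of the pair, CYP71A18, is listed at 0 in every plant, and whether that comes from the counting is unknown.

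Among 9 regulators and exporters of this pathway, 8 were tested and 7 had negative values. The list median was -0.59 on the log2 scale. DESeq2 called 2 of them lower, beside 9.72% of all genes, and 1 higher, beside 8.41%. PDR12, also called ABCG40, a membrane transporter, was lower (14.9 and 8.46 CPM in the overexpressor plants, 48.3 and 38.2 CPM in the wild-type plants, -1.89 ± 0.32, edgeR adjusted p = 0.0637). MYB51 and MYB34, regulators of indolic metabolism, went opposite ways: MYB51 was at -1.51 ± 0.44 (DESeq2 adjusted p = 0.0047) and MYB34 at 1.63 ± 0.32 (DESeq2 adjusted p = 1.59e-04), and neither passed in edgeR. WRKY33, named after its values were seen because it binds the promoters of CYP71A13 and PAD3, was at 264 and 54.5 CPM in the overexpressor plants and 169 and 332 CPM in the wild-type plants. The genotypes thus overlapped in WRKY33, and the overexpressor plants differed far more in it than in PAD3 (8.21 and 8.63 CPM). In the wild-type plants PAD3 had the order of WRKY33 (15.5 and 36.6 CPM). CYP71A13 had that order in the overexpressor plants (2.87 and 1.84 CPM) and was almost level in the wild-type plants (7.68 and 7.84 CPM). The part of WRKY33 in these levels was not tested.

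Of the 3 partners of ALD1, 1 was called lower by DESeq2 (9.72% of all genes were). FMO1, which hydroxylates pipecolic acid, was at 1.25 and 0.642 CPM in the overexpressor plants and 3.17 and 3.85 CPM in the wild-type plants (log2 fold change -1.88 ± 0.38, edgeR adjusted p = 0.0709, DESeq2 adjusted p = 0.0019). SARD4, the reductase between ALD1 and FMO1, was at 25.5 and 36.6 CPM against 25.4 and 17.5 CPM (0.53 ± 0.27), and UGT76B1, which glucosylates the product, was at -0.59 ± 0.57. Neither of these passed in edgeR or DESeq2.

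The genes that make, break down and sense salicylic acid had mostly small differences. All 24 listed were tested and 17 had negative values, beside 9715 of the 19919 genes tested. The median log2 fold change was -0.30, and DESeq2 called 1 lower and 0 higher (9.72% and 8.41% of all genes). That gene was NPR4, a salicylic acid receptor that represses defence genes, at 43.7 ± 1.4 CPM in the overexpressor and 66.2 ± 10.1 CPM in wild type (-0.60 ± 0.14, DESeq2 adjusted p = 0.0196). TGA5, named OBF5 in the reference, a transcription factor of PR1, was at -0.52 ± 0.13, and NIMIN2, an NPR1-binding protein, at 0.65 ± 0.18. EPS1, which releases salicylic acid from its conjugate precursor, was at 0.36 ± 0.15. No gene of this list passed edgeR's adjusted p of 0.05. At an unadjusted p under 0.05 in edgeR, 5 were lower (17.0% of all genes were) and 1 higher.

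**Figure D4:**
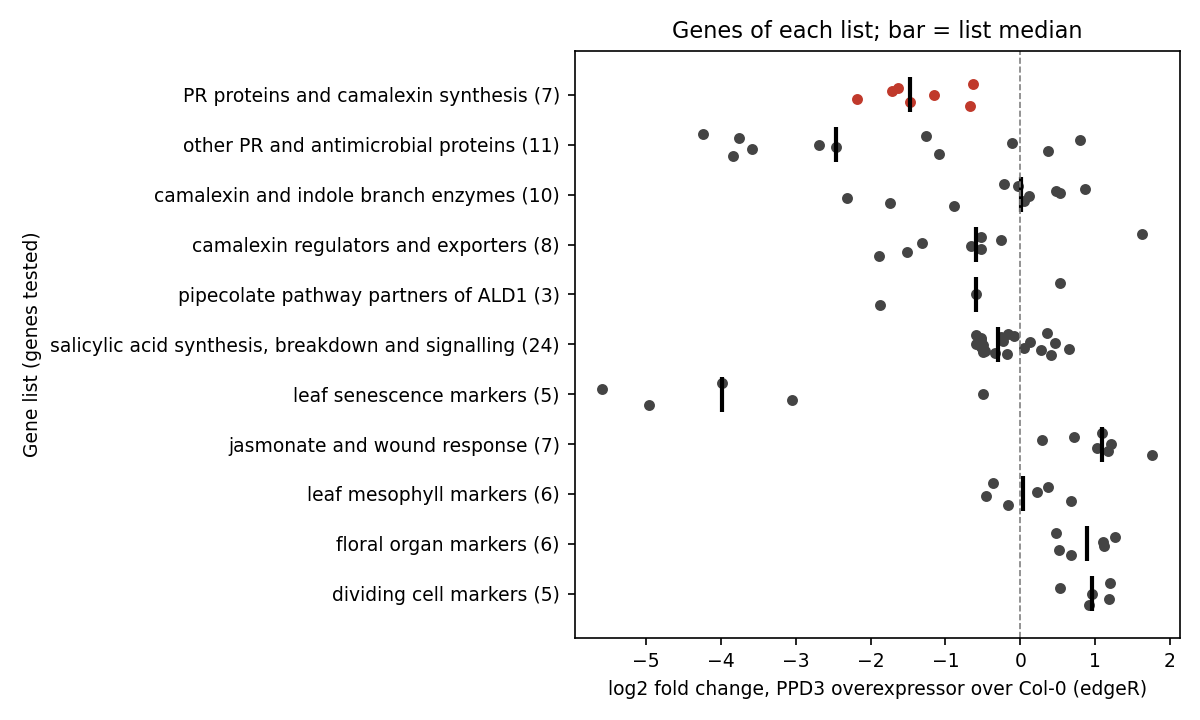
Log2 fold changes, PPD3 overexpressor over Col-0 (edgeR), of the tested genes of each list, 1 point a gene, with the list median as a bar. The PR and camalexin genes (red, median -1.48) all lie below 0, the other PR and antimicrobial proteins have a median of -2.46, and the camalexin and indole enzymes are spread around 0.01.

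Senescence and cell division markers also differed between the genotypes in DESeq2, while floral organ markers did not pass. Of 7 leaf senescence markers, 5 were tested and all 5 had negative fold changes, with a median of -3.98. DESeq2 called 4 of these 5 lower (9.72% of all genes were). SAG13 was at 8.74 and 7.0 CPM in the overexpressor plants and 78.5 and 52.4 CPM in the wild-type plants (-3.05 ± 0.26), and ORE1, a NAC factor that promotes senescence, was at -3.98 ± 0.43. Summed over the list, the markers were at 104 and 27.8 CPM in the overexpressor plants and 225 and 464 CPM in the wild-type plants. Wild-type plant 2 was the highest in this sum, as in PR1, PR2, PR5, CYP71A12 and PAD3, but not in every marker. SAG12, SAG13 and SAG29 were higher in wild-type plant 1, and ORE1, NAP, SEN1 and WRKY53 in wild-type plant 2. Of the sums, WRKY53 made up 88.9 and 16.6 CPM in the overexpressor plants, and SEN1 68.7 and 224 CPM in the wild-type plants. SAG29, NAP, SEN1 and WRKY53 were named after their values were seen, and WRKY53 overlapped between the genotypes. SAG12, the marker most specific to senescence, named after its values were seen, did not pass edgeR's filter. It had 1 and 0 counts in the overexpressor plants and 179 and 7 in the wild-type plants. In CPM these were 0.0250 and 0 against 4.84 and 0.201. DESeq2 called SAG12 lower (adjusted p = 0.00159), with its counts nearly all in wild-type plant 1. All 5 dividing-cell markers were higher, and DESeq2 called all 5 higher (8.41% of all genes were). Their sums were 125 and 121 CPM in the overexpressor plants against 70.1 and 58.3 CPM in the wild-type plants. HINKEL and CYCB1;1 led that list (1.18 ± 0.13 and 1.2 ± 0.14). The 6 floral organ markers had positive values, AG at 1.1 ± 0.45 and PI at 1.27 ± 0.65, none called in edgeR or DESeq2, and summed to 20.2 and 13.6 CPM against 12.4 and 6.38 CPM. The part of these tissues and states in the levels of the PR and camalexin genes was not tested.

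Jasmonate, which acts against salicylic acid in many settings, was read from 8 genes. Of these, MYC2 is listed at 0 in every plant, and whether that comes from the counting is unknown. All 7 tested had positive values with a median of 1.09, but in 5 of the 7 the genotypes overlapped. DESeq2 called 1 higher (8.41% of all genes were), LOX2, an enzyme of jasmonate synthesis. LOX2 was at 3437 and 2416 CPM in the overexpressor plants against 1655 and 1212 CPM in the wild-type plants (1.03 ± 0.30, edgeR adjusted p = 0.103). VSP1, a vegetative storage protein, was at 0.71 ± 0.31. The list holds no defensin. In the list of secreted defence proteins, PDF1.2A and PDF1.2B, defensins that jasmonate and ethylene induce together, had negative values like PR4. PDF1.2A, named with its copy after their values were seen, was at 10.3 and 3.24 CPM in the overexpressor plants and 85.2 and 172 CPM in the wild-type plants (-4.24 ± 0.73, DESeq2 adjusted p = 3.55e-11, edgeR adjusted p = 0.0637). PDF1.2B was at -3.59 ± 1.16 and passed in neither tool, and the copies can share reads. The overexpressor plants differed in the jasmonate list by a median log2 of 1.53, plant 1 above plant 2, as WRKY33 did. JAZ10, an early jasmonate gene named after its values were seen, was at 76.0 and 5.19 CPM in the overexpressor plants and 8.98 and 26.1 CPM in the wild-type plants. Overexpressor plant 2 was thus below both wild-type plants, as it was in JAZ1, JAZ5 and VSP2, also named after their values were seen. PR1, PR2, PR5 and CYP71A13 were also higher in overexpressor plant 1 than in plant 2, ALD1, CYP71A12 and PAD3 were not, and the part of this plant difference in their levels was not tested.

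Among 7778 genes that carry a symbol and average 1 or more in log2 CPM, those closest to PR1 across the 4 plants were STP1, a sugar transporter (Euclidean distance of centred log2 CPM 0.06), OZF2, a zinc-finger protein (0.12), and GSTU4 (0.12). STP1 was at 108 and 75.3 CPM in the overexpressor plants and 348 and 500 CPM in the wild-type plants. Closest to PAD3 were GSTF7, a glutathione transferase whose close copies can share its reads (0.27), LAC2, a laccase (0.28), and SAG21, a senescence-associated protein (0.28). SAG21 was at 32.6 and 26.2 CPM in the overexpressor plants and 52.8 and 133 CPM in the wild-type plants. Its wild-type plants had the order of PAD3, which the choice by likeness favours, and its overexpressor plants the opposite order. With 4 plants such likeness describes these libraries and no more.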

How the data were processed

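Polyadenylated RNA of 4 single plants was sequenced as 150-bp single reads from TruSeq v2 libraries, per the labels' protocols, a kit that does not mark strand. The deposited values are raw read counts per gene, without normalization. The submitters' processing notes name the build TAIR10 and the tool DESeq2. For the aligner, counter and annotation, nothing is given in the sources used here. Library sizes and tests leave out the rows without a gene name: reads without a feature were 0.713% to 0.941% of all counted reads, ambiguous reads 3.67% to 4.18% and reads aligned at several places 4.18% to 5.61%. Samples were grouped by title.

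The main test was that of edgeR 4.0.16 under R 4.3.3 (filterByExpr with a minimum count of 10 and total of 15, TMM, quasi-likelihood F test of genotype, Benjamini-Hochberg adjustment over 19919 genes). DESeq2 1.42.0 and limma 3.58.1 were alternatives, with those under "How the results depend on the processing". The SE is the log2 fold change divided by the square root of F. The script was tested on simulated data. Names, models and sequences came from RefSeq TAIR10.1 by locus (32548 of 33977 rows matched, all 7 genes among them). The promoter window of 1 of the 7 is not reported here. The genes and lists were chosen with earlier results of these data known. The genes named from each of the 11 other lists are the 2 with the smallest edgeR p in each direction, apart from those said to be named after their values were seen, and for some lists not all are given. Same-numbered plants did not deviate together (correlation of their differences over genes -0.30).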

Additional observations from a re-analysis of the deposited data

How the results depend on the processing

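Every log2 fold change of the 7 genes stayed negative under all settings that gave one. The number of calls among the 7 was 0 in edgeR, 5 with DESeq2 and 5 at an adjusted p of 0.10, and over all genes it was 1 in edgeR, 3681 with DESeq2 and 4129 at 0.10. In both settings the same genes passed: PR1 (-2.19 in each), PR5 (-0.68 in each), ALD1 (-1.49 in DESeq2 and -1.48 at 0.10), CYP71A13 (-1.72 in each) and PAD3 (-1.63 in each). Over all genes the calls were 13 without a filter, 0 with at least 5 CPM in 2 libraries (where ALD1 and CYP71A12 were not tested), 0 with limma and voom, and 0 with the replicate number as a block, and none of these called any of the 7. With each plant left out edgeR called 0 to 0 genes over all and 0 to 0 of the 7. Such fits keep 1 plant in a genotype, assumed to vary like the other. A crossed pairing of the plant numbers, added after the data were seen because same-numbered plants deviated in opposite directions, called 137 genes and 1 of the 7. Other scalings (DESeq2 size factors, library size alone, upper quartile) and robust moderation changed no call and moved the median of all genes by at most 0.04 in size. Leaving out organelle genes changed nothing, since their 285 rows hold 0 counts. With 50 bases after the start added, 4 of 6 promoters held TTGAC, against 50.5% of all. The cause of the difference between the tools was not tested.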

Other observations

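Ratios of counts within a plant do not depend on its library size. PR2 had 5.48 and 4.93 reads for each read of PR1 in the overexpressor plants and 1.36 and 2.11 in the wild-type plants. PR5 had 3.41 and 4.07 reads for each read of PR1 in the overexpressor plants and 1.39 and 1.22 in the wild-type plants. In both ratios the 2 genotypes were apart, while the ratio of PAD3 to CYP71A13 was 2.86 and 4.70 in the overexpressor plants and 2.02 and 4.67 in the wild-type plants, with overlap. These ratios were chosen after the values were seen and were given no test.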
